A study of Mus musculus with 2 samples.

Results

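IgG2b cells and IgG1 cells of the mouse splenic germinal center were compared inside 2 single-cell libraries. Both are switched B cells, and they differ in the heavy chain constant gene they transcribe. A cell was kept if it had at least 500 genes, at least 1000 unique molecular identifiers (UMIs, tags that each mark 1 captured RNA molecule), at most 25% mitochondrial UMIs and at least 5 UMIs over the 8 heavy chain constant genes Ighm, Ighd, Ighg1, Ighg2b, Ighg2c, Ighg3, Igha and Ighe. An IgG2b cell drew at least 70% of these UMIs from Ighg2b, and an IgG1 cell at least 70% from Ighg1. Of 16633 deposited barcodes, 541 were IgG2b cells (302 in library 1 and 239 in library 2) and 4489 were IgG1 cells (2583 and 1906). Both libraries hold germinal center B cells sorted from spleens of 8-week-old C57BL/6J mice, an inbred strain, after immunization with sheep red blood cells. They carry no engineered allele and no treatment that sets one apart from the other. The labels name neither the markers of the sort, the day after immunization nor the mice behind each library. The p-values therefore cannot be read as spread between mice. They weigh each difference against the disagreement of these 2 libraries, pooled over genes. That spread is almost wholly shared across genes. A gene can thus pass although its own 2 libraries disagree, as Tmed6 does below.

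Class switch recombination replaces the constant region of the antibody heavy chain while the antigen-binding part stays the same, by cutting and joining 2 switch regions of the locus. Which constant gene is used depends on cytokines that open its switch region for transcription. In mice IL-4 acting through STAT6 directs switching to IgG1, TGF-β directs switching to IgG2b, and interferon γ with T-bet directs switching to IgG2c. In the germinal center, cells divide and mutate in the dark zone and are tested against antigen and helper T cells in the light zone.

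The constant genes lie on chromosome 12 of mm10, minus strand, in the order Ighm, Ighd, Ighg3, Ighg1, Ighg2b, Ighg2c, Ighe and Igha. Ighg1 spans 113325240 to 113330523 and Ighg2b spans 113302965 to 113307933, both annotated as immunoglobulin constant genes. Among cells with enough heavy chain UMIs, IgG2b cells made up 4.89% (exact binomial 95% interval 4.36% to 5.45%) of 6182 in library 1 and 5.13% (4.51% to 5.80%) of 4659 in library 2. IgG1 cells made up 41.8% and 40.9%. These shares and the heavy chain values that follow come from the rule and are given as a description. The median IgG2b cell drew 87.8% of its heavy chain UMIs from Ighg2b in library 1 and 87.5% in library 2, whereas the median IgG1 cell drew 97.1% from Ighg1 in each. Just inside the limit, 59 and 51 IgG2b cells lay between 70% and 80%. Just outside it, 68 and 50 cells lay between 60% and 70%, the highest at 69.6% and 69.8%. Ighg1 supplied 3.70% and 5.06% of the heavy chain UMIs of IgG2b cells, and Ighg2b supplied 0.704% and 0.925% of those of IgG1 cells. The IgG2b class thus held the larger share of UMIs from the other class's gene, whose part in the results was not tested. With these genes, 424 immunoglobulin genes are left out of what follows.

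The 2 classes also differed in depth and in mitochondrial share. IgG2b cells had a median of 7866 UMIs in library 1 and 8166 in library 2, against 7147 and 7086 in IgG1 cells. Their median mitochondrial share was 14.9% and 15.9%, against 16.1% and 17.4%. Germinal center markers were present in both classes, with a summed level over 11 genes of 4386 and 4497 CPM (UMIs of a gene per 1000000 UMIs of its class sum) in IgG2b cells and 4308 and 4348 in IgG1 cells. Of 7 neutrophil markers, 6 were at 0 in both classes, as were 4 of 6 natural killer markers and the T cell marker Cd3e. The 10 macrophage markers summed to 7.95 and 12.7 CPM in IgG2b cells and 8.04 and 15.7 in IgG1 cells, and the 9 T cell markers to 53.2 and 62.5 CPM against 55.0 and 64.5 CPM, nearly all of it Lck. Of 7 erythroid markers, which summed to 37.6 and 52.4 CPM against 34.5 and 32.0 CPM, the globin gene Hbb-bt was higher in IgG2b cells (0.42 ± 0.11 on the log2 scale, edgeR adjusted p = 0.0204; adjusted p = 0.0671 without the 2 cells described next). Of 7 naive B markers tested, Fcmr and Ly6d were higher in IgG2b cells, of 6 plasmablast markers Mzb1, and of 11 germinal center markers Rgs13 and Cd79a, with values given below. The 8 naive B markers summed to 516 and 567 CPM in IgG2b cells and 513 and 505 in IgG1 cells, and the 8 plasmablast markers to 1369 and 1474 CPM against 1228 and 1381. Their part in the results was not tested. No member of the marginal zone, B1 or atypical B, macrophage, T cell, dendritic cell and stromal lists was called, and no natural killer, neutrophil or platelet marker had enough UMIs to be tested. Of the barcode sequences, 22 occurred in both libraries, and 1 of them was an IgG2b or IgG1 cell in both.

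In library 1, 2 of the IgG2b cells stood apart by holding 1435 and 613 heavy chain UMIs, while no IgG1 cell of either library held more than 284 and no IgG2b cell of library 2 more than 256. The first had 48308 UMIs in all and a mitochondrial share of 4.24%, and carried 236 UMIs of Mzb1 and 53 of Xbp1, which serve antibody secretion. The second was less deep, at 12310 UMIs and a mitochondrial share of 15.8%, and carried 3 UMIs of Mzb1 and 2 of Xbp1. The cells also differed in Jchain, the gene of the antibody joining chain, with 293 and 7 UMIs. Neither held a UMI of Bcl6, a repressor needed for the germinal center state. They held 4 and 5 of the 13 UMIs of Prdm1, the plasma cell regulator, in the IgG2b cells of library 1. Other genes did not all go the same way. Sdc1, a plasmablast marker with 3 UMIs in the IgG2b cells of library 1, had 0 in both cells. Irf4, which promotes plasma cell fate, had 5 and 0, and Mki67, which marks dividing cells, had 47 and 41. Named calls that were lost without these 2 cells are stated as such with each group of genes. The limit of 500 heavy chain UMIs that leaves them out was chosen after their values were seen. It followed a first attempt, also made after seeing the data, that left out every cell with at least 20 UMIs of Jchain (25 and 26 IgG2b cells, 172 and 158 IgG1 cells, called Jchain-rich below). Both settings are reported, because they differ in what they keep.

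UMIs were summed over the cells of each class in each library, and the 4 sums were compared by edgeR's quasi-likelihood test with the library as a block. A log2 fold change is IgG2b over IgG1 throughout. The sums held 3272019 and 2593454 UMIs in IgG2b cells and 25609178 and 18948930 in IgG1 cells, so that the IgG2b sums set the precision. Of 10626 genes tested, 272 had an adjusted p below 0.05, 2.56% of all. In IgG2b cells 188 of them were higher (1.77%) and 84 lower (0.791%), and 268 had the same sign in both libraries. These shares of all genes tested are the background for each count of list members called with all cells below. The differences were small: 236 of the 272 were under 0.5 on the log2 scale and 13 reached 1. Without the block for library no gene passed by edgeR (400 had an unadjusted p below 0.05), while DESeq2 with the block called 47 of the 738 genes it gave an adjusted p. Counting by edgeR with the block, without the 2 high heavy chain cells 145 passed (90 higher, 55 lower), of which 144 were among the 272, and without the Jchain-rich cells 241 passed (191 higher, 50 lower), of which 169 were. Over 19 other settings, 5 of them chosen after seeing the data, the count ran from 0 to 419.

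Many genes of mitosis were lower in IgG2b cells. Of 50 genes of a G2/M phase list, 14 were lower and none was higher, against a background of 0.791% of all genes called lower. Many of the 50, though not all, act in chromosome condensation, spindle assembly and separation. The median log2 fold change of the 50 genes was -0.17, beside 0.01 over all genes tested, and 42 of the 50 were lower in both libraries. Summed over the list, the level was 11355 and 11389 CPM in IgG2b cells and 12564 and 12826 CPM in IgG1 cells. IgM cells of the same libraries (at least 70% of heavy chain UMIs from Ighm and Ighd), given as a description with no test, stood near the IgG2b cells at 11519 and 11784 CPM. These IgM cells too were deeper than IgG1 cells, with medians of 7618.5 and 7450 UMIs. Their median mitochondrial share, 14.3% and 14.9%, was also below that of IgG1 cells. They were not part of the matching described below. The 14 genes were Mki67, Cenpf, Cenpe, Ube2c, Hmmr, Kif20b, Nusap1, Tpx2, Smc4, Ctcf, Aurka, Kif23, Kif11 and Dlgap5. Without the 2 high heavy chain cells 13 of these 14 were still called, all but Kif23 (adjusted p = 0.0612), beside 55 of all 10618 genes tested called lower. Without the Jchain-rich cells 8 genes of the list were called lower, beside 50 of all 10357. With every cell thinned to the same number of UMIs 6 were, beside 16 of all 9268.

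Mki67 encodes the Ki-67 protein that coats mitotic chromosomes and marks dividing cells. Its level was 1430 and 1350 CPM in the IgG2b sums of libraries 1 and 2 and 1758 and 1667 CPM in the IgG1 sums. Both IgG2b values lay below both IgG1 values, with a log2 fold change (SE after ±) of -0.29 ± 0.04 and an edgeR adjusted p = 3.21e-10. Cenpf, a kinetochore protein that accumulates in G2, stood at 289 and 278 CPM in IgG2b cells and 363 and 376 CPM in IgG1 cells. It differed by -0.37 ± 0.05 (adjusted p = 6.39e-09), again with no overlap. Cenpe, the kinesin that moves chromosomes to the spindle equator, was at 326 and 303 CPM against 398 and 388 CPM (-0.31 ± 0.05, adjusted p = 1.34e-06). Ube2c, the ubiquitin-conjugating enzyme of the anaphase-promoting complex, was at 286 and 272 CPM against 337 and 361 CPM (-0.31 ± 0.05, adjusted p = 4.59e-06). None of the 14 genes overlapped between classes, but they were picked by their call. Over all genes tested 33.7% did not overlap, over the 272 called genes 64.0%, and of the 50 G2/M genes 36 did not. Plk1, the mitotic kinase, is not in the list and was chosen after its values were seen. It was at 96.6 and 84.1 CPM in IgG2b cells and 120.3 and 119.2 CPM in IgG1 cells (-0.39 ± 0.07, adjusted p = 8.18e-05).

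**Figure D1:**
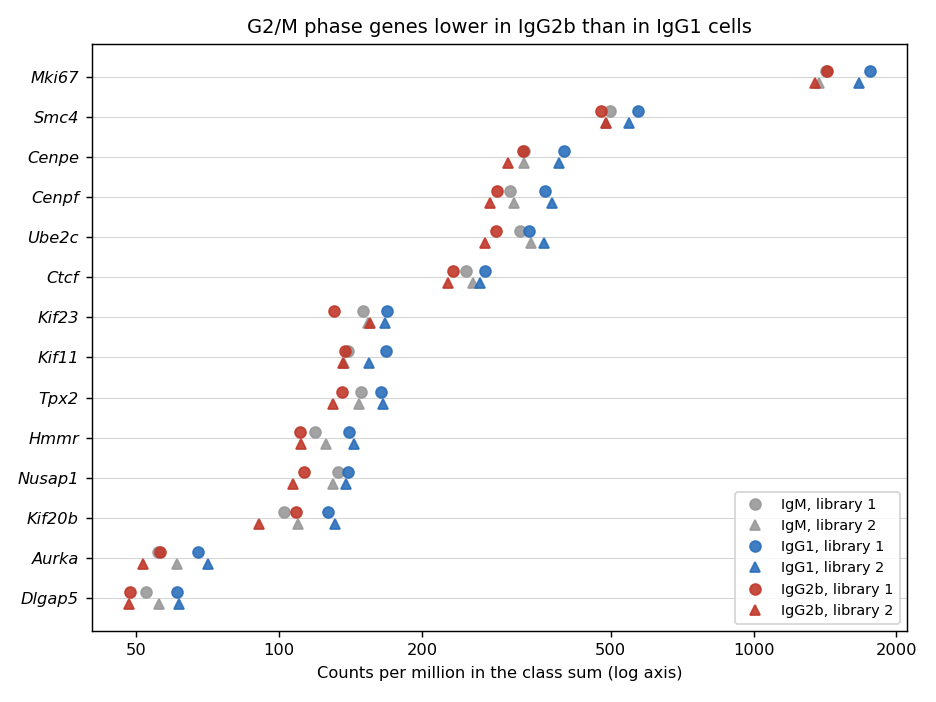
Levels of the 14 G2/M phase genes called lower in IgG2b cells, in CPM on a log axis, with circles for library 1 and triangles for library 2. The genes were picked by their call, and in each both IgG2b values (red) lie to the left of both IgG1 values (blue), as they or their reverse do in 64.0% of all called genes and 33.7% of all genes tested, for example 1430 and 1350 against 1758 and 1667 CPM for Mki67, and IgM values (grey) are shown beside them.

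Many mitotic genes share a promoter element, the cell cycle gene homology region TTTGAA, bound by the complexes that keep such genes silent until G2, often with CCAAT boxes upstream. Promoter windows of RefSeq genes on GRCm38.p6, from 250 bases before to 50 after the start site, were searched for both motifs on both strands. Windows were found for 11 of the 14 called genes. TTTGAA occurred in 9 of these 11 windows and in 33 of 48 windows (68.8%) of the G2/M genes tested, beside 17.9% of all 32851 windows and 12.3% of the windows of tested genes. CCAAT occurred in 8 of the 11 and in 36 of the 48, beside 37.4% of all and 38.8% of those of tested genes. Matches of the 2 motifs can share at most the A or T at their ends, and a match is a description of the letters, not a shown binding site. The motifs were chosen after the mitotic genes had been seen to be lower. To show the element where it lies upstream, the 150 bases before the start site are printed for the 3 called genes that hold TTTGAA within them, 5′ to 3′ on the gene's strand. Capitals mark TTTGAA or CCAAT, or their reverse complements TTCAAA and ATTGG.
Mki67: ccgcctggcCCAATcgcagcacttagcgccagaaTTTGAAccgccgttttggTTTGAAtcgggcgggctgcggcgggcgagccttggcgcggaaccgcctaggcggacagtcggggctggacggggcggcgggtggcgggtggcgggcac
Ube2c: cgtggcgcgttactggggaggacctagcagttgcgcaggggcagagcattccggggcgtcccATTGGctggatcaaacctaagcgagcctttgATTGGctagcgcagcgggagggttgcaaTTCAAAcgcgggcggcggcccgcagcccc
Kif11: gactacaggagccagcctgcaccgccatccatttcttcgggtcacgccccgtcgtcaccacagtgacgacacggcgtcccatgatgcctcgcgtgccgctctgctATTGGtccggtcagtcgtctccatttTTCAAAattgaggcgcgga
The stretches are chr7:135716380-135716529 (minus strand), chr2:164769779-164769928 (plus strand) and chr19:37376232-37376381 (plus strand). In Mki67, TTTGAA starts 116 and 98 bases before the start site, and a CCAAT box 141 bases before. In Ube2c it starts 29 bases before, with CCAAT boxes 88 and 57 bases before. In Kif11 it starts 19 bases before, with a CCAAT box 45 bases before.

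S phase genes were not among those lower. Of 42 genes of DNA replication, 3 were higher in IgG2b cells and none lower, beside 1.77% of all genes called higher. The median log2 fold change was 0.09, and 24 were higher in both libraries against 1 lower in both. The 3 were Ung, Mcm6 and Tipin. No gene of the list was called in thinned cells (median 0.06) or in the matched cells described below (median 0.07). Without the 2 high heavy chain cells 3 genes of the list were called higher, beside 90 of all 10618 genes tested. Without the Jchain-rich cells 4 were, beside 191 of all 10357. Ung, which removes uracil from DNA and so serves both switching and hypermutation, was at 48.3 and 82.1 CPM in IgG2b cells and 41.4 and 51.2 CPM in IgG1 cells. The classes overlapped across libraries, although IgG2b was higher within each (0.47 ± 0.09, adjusted p = 1.13e-04). Mcm6, a subunit of the replicative helicase, was at 229 and 293 CPM against 201 and 227 CPM (0.28 ± 0.06, adjusted p = 1.65e-04). Tipin, which protects replication forks, was at 148 and 174 CPM against 126 and 142 CPM (0.27 ± 0.06, adjusted p = 0.00377).

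The share of cells in each zone was read from RNA of the genes behind the usual zone gate, after each cell was thinned to 3200 UMIs. A cell with Cd83 or Cd86 UMIs but without Cxcr4 UMIs counted as light zone, and one with Cxcr4 UMIs but without those of Cd83 and Cd86 as dark zone. Thinning left out 24 and 14 IgG2b cells and 213 and 208 IgG1 cells that were shallower. Many cells fell in no zone by this rule. Neither gate's genes were seen in 37.1% and 35.6% of IgG2b cells and 38.3% and 38.04% of IgG1 cells, and both were in 9.35% and 13.8% of IgG2b and 11.4% and 11.01% of IgG1 cells. The light zone gate held 36.3% (101 of 278, exact binomial 95% interval 30.7% to 42.3%) of IgG2b cells in library 1 and 35.6% (80 of 225, 29.3% to 42.2%) in library 2. It held 34.6% (32.7% to 36.6%) and 35.3% (33.1% to 37.7%) of IgG1 cells. The dark zone gate held 17.3% (13.0% to 22.2%) and 15.1% (10.7% to 20.5%) of IgG2b cells and 15.7% (14.3% to 17.3%) and 15.6% (13.9% to 17.4%) of IgG1 cells. Without thinning, the light zone gate held 39.1% and 35.1% of IgG2b and 35.8% and 36.8% of IgG1 cells, while 11.6% to 13.2% of the cells of a class and library had neither and 32.8% to 38.5% had both. The intervals of the classes overlapped in both libraries. They cover counting error only, and 2 pairs of values allow no exact permutation test below p = 0.5. The gate genes were not called. Cd83, a light zone marker, had a log2 fold change of 0.07 ± 0.06 (adjusted p = 0.66), Cd86, a ligand for T cell CD28, 0.05 ± 0.08 (adjusted p = 0.87), and Cxcr4, the receptor that draws cells into the dark zone, 0.07 ± 0.07 (adjusted p = 0.77).

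Among 24 light zone genes, which report antigen receptor and T cell signals, 5 were higher in IgG2b cells and none lower (median 0.12). Of all genes tested, 1.77% were called higher. The 5 were Egr3, Nfkbid, Ccnd2, Egr1 and Bcl2a1b. None of the 5 was called without the 2 high heavy chain cells. Without the Jchain-rich cells 4 genes of the list were called higher, beside 191 of all 10357 genes tested. No gene of the list was called in the matched cells described below (median 0.01, 12 genes on each side of 0), with a mitochondrial limit of 10% (median -0.01) or without the highest 6% of doublet scores (median 0.11). In the matched cells Ccnd2 had -0.05 and Bcl2a1b -0.02. At a class limit of 90%, 7 genes of the list were called higher (median 0.18), beside 289 of all 10231 genes tested. Outside the light zone gate 3 were called higher (median 0.24), beside 36 of all 10121 genes tested. With a mitochondrial limit of 15% 2 were, beside 34 of all 9992, and in thinned cells 1 was, beside 47 of all 9268. Ccnd2, the cyclin D2 that drives entry into the cycle, was at 23.2 and 24.7 CPM in IgG2b cells and 14.99 and 18.6 CPM in IgG1 cells (0.53 ± 0.15, adjusted p = 0.0215). It was 0.28 without the 2 cells (adjusted p = 0.45) and 0.62 without the Jchain-rich cells (adjusted p = 0.0168). Egr1, a factor induced within minutes of antigen receptor signals, was at 48.6 and 45.1 CPM against 39.2 and 34.2 CPM (0.36 ± 0.10, adjusted p = 0.0266) and had a log2 fold change of 0.32 without them (adjusted p = 0.12). Egr3, its relative, was at 7.64 and 8.48 CPM against 3.98 and 4.38 CPM, in 18 IgG2b cells over both libraries (0.95 ± 0.26, adjusted p = 0.0214). Nfkbid, an inhibitor of NF-κB, had 0.56 ± 0.16 (adjusted p = 0.029) and Bcl2a1b, a survival gene of the BCL2 family with near-identical copies that counting may split, 0.28 ± 0.08 (adjusted p = 0.0189). Of 15 dark zone genes, Mki67 and Ccnb1 (cyclin B1, -0.22 ± 0.07, adjusted p = 0.0441) were lower, and Tifa, an adaptor to NF-κB, was higher (0.80 ± 0.24, adjusted p = 0.045). Without the 2 high heavy chain cells Mki67 alone of these was called, Ccnb1 having an adjusted p = 0.0733 and Tifa 0.0901.

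Of 12 genes of the plasma cell program tested, Mzb1 and Hspa5 were higher in IgG2b cells and none was lower. Both act in the endoplasmic reticulum, where antibody is folded. Among all genes tested 1.77% were called higher. With a class limit of 90% in place of 70%, 5 of the 12 were higher and 1 lower, beside 289 and 130 of all 10231 genes tested. Mzb1, a chaperone for antibody assembly, was at 534 and 604 CPM in IgG2b cells and 415 and 509 CPM in IgG1 cells. IgG2b was higher within each library by more than the libraries disagreed (0.31 ± 0.04, adjusted p = 3.25e-08; 0.22 without the 2 high heavy chain cells, adjusted p = 0.00746). Hspa5, the reticulum's HSP70 (BiP), was at 368 and 422 CPM against 322 and 362 CPM (0.21 ± 0.05, adjusted p = 0.0021). Its call was lost without the 2 cells (0.17, adjusted p = 0.0629). A list of 24 folding and transport genes was drawn up after these values were seen, so its counts, medians and sums support nothing. In it 14 genes were called higher with all cells, 8 without the Jchain-rich cells and 2 without the 2 high cells, namely Manf and Mzb1. With a class limit of 90%, 19 were. Over all genes tested, 191 of 10357 were called higher without the Jchain-rich cells, 90 of 10618 without the 2 cells and 289 of 10231 with the limit of 90%. The median was 0.24 with all cells, 0.16 without the 2 cells and 0.46 with the limit of 90%. Summed, the list was at 3553 CPM against 3012 CPM in library 1 and at 3826 CPM against 3228 CPM in library 2. Of the 24 genes, 23 were higher in both libraries. In IgM cells, which in library 1 included 2 of at least 500 heavy chain UMIs, the list was at 3561 and 3764 CPM, near the IgG2b levels.

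Manf, a secreted factor of the reticulum's stress response, was at 113 and 159 CPM in IgG2b cells and 80.3 and 105 CPM in IgG1 cells. Within each library IgG2b was higher (log2 fold change 0.50 and 0.60; 0.56 ± 0.07 in all, adjusted p = 1.24e-10). The first of the 2 cells held 92 of its 370 UMIs in the IgG2b cells of library 1, and without both cells the difference was 0.37 (adjusted p = 0.0121). The same cell held 16.6% of the UMIs of Calr, the lectin chaperone calreticulin, and 38.7% of those of Pdia4, a disulfide isomerase. Calr had 0.25 ± 0.05 with all cells (adjusted p = 1.38e-04) and 0.12 without the 2 cells (adjusted p = 0.35). Pdia4 had 0.68 ± 0.15 (adjusted p = 0.00149) and 0.31 (adjusted p = 0.50). Sub1, a transcription coactivator, was among the smallest p-values of all, at 49.5 and 34.7 CPM against 21.8 and 22.6 CPM (0.96 ± 0.12, adjusted p = 1.24e-10). Of its 162 UMIs in the IgG2b cells of library 1, 103 lay in that 1 cell, and the log2 fold change was 0.11 without the 2 cells (adjusted p = 0.84) and 0.48 without the Jchain-rich cells (adjusted p = 0.12). Slpi, a protease inhibitor, was at 171 and 78.3 CPM in IgG2b cells and 99.9 and 118 CPM in IgG1 cells, with 265 of its 559 UMIs of library 1 in the same cell. It was not called with all cells (0.25 ± 0.08, adjusted p = 0.0551) and was lower in IgG2b cells without the 2 cells (-0.39, adjusted p = 0.00668). Without the Jchain-rich cells it had -0.26 (adjusted p = 0.14).

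**Figure D2:**
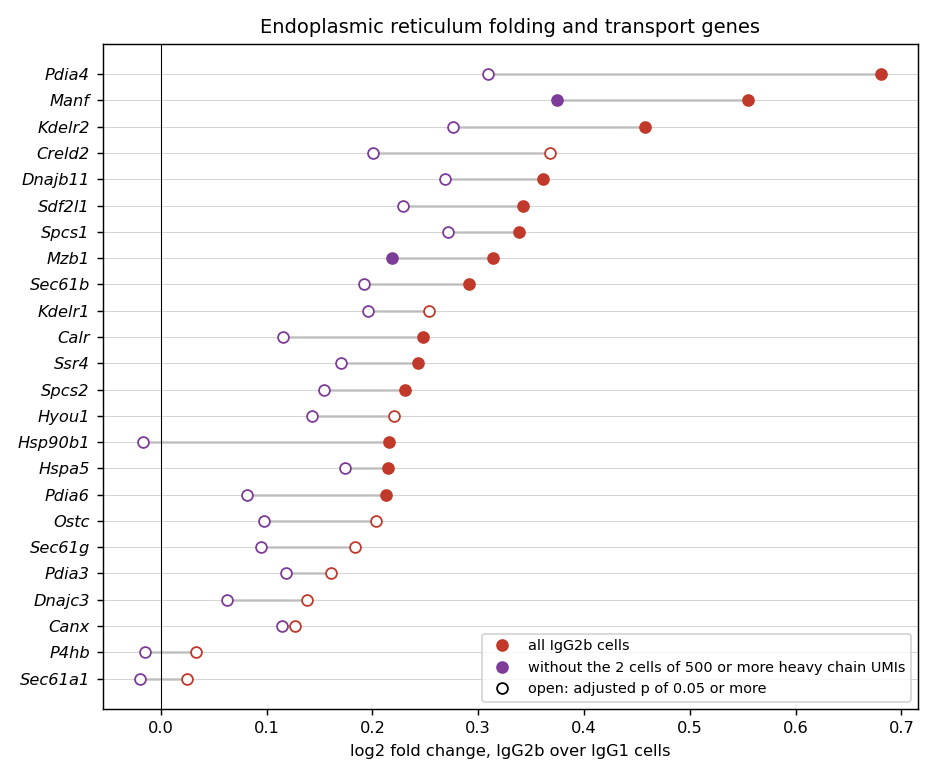
Log2 fold change, IgG2b over IgG1, of the 24 folding and transport genes with all cells (red) and without the 2 IgG2b cells that held at least 500 heavy chain UMIs (purple), with filled points for an adjusted p below 0.05. With all cells 14 points are filled, and without the 2 cells only those of Manf and Mzb1.

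Transcripts of the mitochondrial genome were lower in IgG2b cells by a near-constant step. Of 13 mitochondrially encoded genes of the respiratory chain, 10 were lower and none higher (median -0.14), beside 0.791% of all genes called lower. mt-Co1, a subunit of cytochrome oxidase, was at 14385 and 14434 CPM in IgG2b cells and 16195 and 15987 CPM in IgG1 cells (-0.15 ± 0.03, adjusted p = 4.38e-04). mt-Nd2 (-0.15 ± 0.03, adjusted p = 0.00118), mt-Co2 (-0.14 ± 0.03, adjusted p = 0.00168) and mt-Atp6 (-0.13 ± 0.03, adjusted p = 0.0018) lay close to it. Summed, the 13 genes were at 115603 and 117926 CPM in IgG2b cells and 127558 and 130844 CPM in IgG1 cells, while IgM cells, with no test, had 115077 and 118343 CPM, near the IgG2b cells. The limit on mitochondrial share was part of the choice of cells, and the share itself differed between the classes as given above.

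To set the classes side by side at equal quality, IgG1 cells were drawn so that their spread over mitochondrial share and depth followed that of the IgG2b cells. This choice was made after seeing the data. The draw left 526 and 928 IgG1 cells beside 301 and 236 IgG2b cells, with median mitochondrial shares of 15.015% in IgG1 and 14.999% in IgG2b cells of library 1 and of 15.99% and 15.91% in library 2. Only 16 genes were then called (7 higher and 9 lower), and 15 of them were among the 272. The matching sets the mitochondrial share equal by construction, so that the median of the 13 mitochondrial genes (-0.0025, none called) is no result. The genes called higher with all cells moved from a median of 0.27 to 0.13, and 177 of the 186 still tested kept their sign. The genes called lower moved from -0.28 to -0.22, and 79 of 84 kept theirs.

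The mitotic genes were still lower after matching. Of the 50 G2/M genes, 49 had a negative log2 fold change in the matched cells, with a median of -0.19. In these cells 6 of the 50 were called lower, beside 9 of all 9612 genes tested. Ube2c had -0.40 ± 0.06 (adjusted p = 0.00174), Cenpf -0.35 ± 0.05 (adjusted p = 0.003), Mki67 -0.22 ± 0.04 (adjusted p = 0.00807), Cenpe -0.29 ± 0.05 (adjusted p = 0.0136) and Nusap1, a spindle protein, -0.38 ± 0.07 (adjusted p = 0.0244). The sixth was Tubb4b, a tubulin that was not called with all cells (-0.24 ± 0.05 matched, adjusted p = 0.0296; -0.07 with all cells, adjusted p = 0.48). The other calls, named because they were few, were Plk1, Ube2s and Nrgn on the lower side and Sub1, Manf, Hspa5, Fscn1, Socs3, Sat1 and Calr on the higher side. The matched cells included both high heavy chain cells.

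**Figure D3:**
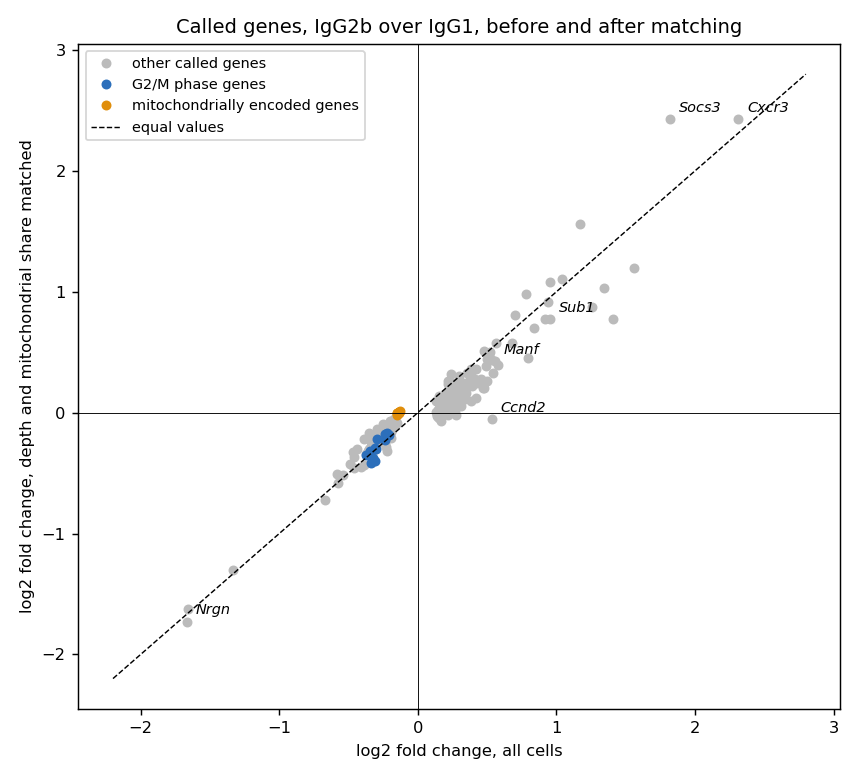
Log2 fold change of the called genes in all cells (horizontal) and in cells matched for mitochondrial share and depth (vertical), with the line of equal values. G2/M genes (blue) stay near the line, mitochondrially encoded genes (orange) lie at 0 because the matching equalizes their share, and Ccnd2 moves from 0.53 to -0.05.

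Several antigen presentation genes were slightly higher in IgG2b cells. Of 12 genes of MHC class I presentation, 4 were higher and none lower (median 0.09). Of 11 of MHC class II presentation, 3 were higher and none lower (median 0.02). Among all genes tested 1.77% were called higher. B2m, the invariant light chain of class I, was at 327 and 356 CPM in IgG2b cells and 288 and 293 CPM in IgG1 cells, without overlap (0.24 ± 0.05, adjusted p = 9.30e-04). H2-D1, a class I heavy chain, was at 517 and 732 CPM against 492 and 586 CPM, higher within each library but overlapping across them (0.20 ± 0.04, adjusted p = 0.00126). H2-K1 and H2-D1 resemble each other and other class I genes, so reads shared between them may be divided by the counting. H2-K1 had 0.17 ± 0.05 (adjusted p = 0.0182) and Psmb9, an immunoproteasome subunit, 0.20 ± 0.06 (adjusted p = 0.0245). In class II, H2-Aa had 0.14 ± 0.04 (adjusted p = 0.0206), H2-DMa, which loads peptide, 0.18 ± 0.06 (adjusted p = 0.0452), and Ctss, the protease that trims the invariant chain, 0.28 ± 0.07 (adjusted p = 0.013). Without the 2 high heavy chain cells B2m, H2-D1 and Ctss were called, while H2-K1 (adjusted p = 0.12), Psmb9 (0.0658), H2-Aa (0.0718) and H2-DMa (0.10) were not. No member of either list was called in the matched cells, where the medians were 0.03 and 0.00. Of 22 genes of antigen receptor signalling, Cd79a, Cd81 and Bcl10 were higher, beside 1.77% of all genes called higher. Cd79a, the signalling chain beside the receptor, was at 1167 and 1288 CPM against 1097 and 1156 CPM (0.13 ± 0.04, adjusted p = 0.0414). Cd81, of the coreceptor, had 0.27 ± 0.07 (adjusted p = 0.00587) and Bcl10, an adaptor to NF-κB, 0.28 ± 0.08 (adjusted p = 0.043). Without the 2 high heavy chain cells Cd81 alone of the 3 was called, Cd79a having an adjusted p = 0.0768 and Bcl10 0.0849. In matched cells no gene of the list was called, and Cd81 had 0.08 (adjusted p = 0.89). Of 15 inhibitory coreceptors and phosphatases only the adaptor Dok3 was called, lower at -0.25 ± 0.06 (adjusted p = 0.00159).

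Genes of the cytokine pathways that direct switching were set beside the 2.56% of all genes called, 1.77% higher and 0.791% lower. Of 13 tested among 15 genes of the IL-4 and STAT6 response none was higher and 1, Mybl1, was lower (-0.18 ± 0.06, adjusted p = 0.0432; adjusted p = 0.11 without the 2 high heavy chain cells). With a class limit of 90%, 2 of the 13 were higher and 1 lower, beside 289 and 130 of all 10231 genes tested. With a mitochondrial limit of 15%, 1 was higher, beside 34 of all 9992. Il4ra, the IL-4 receptor chain, was at 70.3 and 66.7 CPM in IgG2b cells and 79.1 and 69.2 CPM in IgG1 cells (-0.11 ± 0.08, adjusted p = 0.61). Fcer2a, the low-affinity IgE receptor that IL-4 induces, was at 113 and 114 CPM against 136 and 126 CPM (-0.20 ± 0.07, adjusted p = 0.093), and Stat6 had -0.10 ± 0.12 (adjusted p = 0.80). Of 15 tested among 19 genes of the TGF-β pathway none was called, at a median of 0.04. With a mitochondrial limit of 10%, 1 of the list was called higher, beside 17 of all 9566 genes tested. With a limit of 15%, 1 was, beside 34 of all 9992. Tgfb1, the cytokine itself, was at 142 and 135 CPM against 133 and 134 CPM (0.06 ± 0.07, adjusted p = 0.74). Among its receptors, Tgfbr2 was at 33.3 and 39.3 CPM against 29.0 and 28.7 CPM (0.33 ± 0.12, adjusted p = 0.11), and Tgfbr1 was at 85.6 and 63.2 CPM against 73.3 and 59.8 CPM (0.17 ± 0.08, adjusted p = 0.29). Smad7, the feedback inhibitor that TGF-β induces, was at 65.1 and 71.3 CPM against 68.3 and 66.9 CPM (0.01 ± 0.08, adjusted p = 0.97). Both receptors were thus higher in IgG2b cells within each library without passing the test, and Smad7 moved in opposite directions in the libraries.

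Of 14 tested among 16 genes tied to interferon γ and T-bet, Cxcr3 and Psmb9 were higher and none was lower. Of all genes tested, 1.77% were called higher. No gene of the list was called in matched cells. Cxcr3, the chemokine receptor that T-bet induces, had the largest increase of all called genes. It was at 4.28 and 3.47 CPM in IgG2b cells and 0.781 and 0.792 CPM in IgG1 cells (2.31 ± 0.45, adjusted p = 1.83e-04). The values did not overlap, but they rest on 14 UMIs from 6 cells and 9 UMIs from 5 cells, against 20 UMIs from 18 cells and 15 UMIs from 13 cells. Leaving out the highest cell of each sum gave 1.84 ± 0.70 (adjusted p = 0.14). In library 1 that cell held 35.7% of the Cxcr3 UMIs of IgG2b cells but 10.0% of those of IgG1 cells. Such unequal removal lowers an increase in the smaller class by construction, so the lost call is no even check of both classes. Tbx21, which encodes T-bet, was at 3.06 and 2.70 CPM against 1.05 and 1.69 CPM (1.13 ± 0.45, adjusted p = 0.19). Socs3, a feedback inhibitor of STAT3 signals and the called member of 10 genes of the IL-21 and STAT3 response, was at 3.97 and 5.78 CPM against 1.17 and 1.58 CPM (1.82 ± 0.39, adjusted p = 9.30e-04). All 13 of its UMIs in the IgG2b cells of library 1 came from 1 cell, while the highest IgG1 cell of library 1 held 33.3%. Without the highest cell of each sum Socs3 had 0.94 ± 0.73 (adjusted p = 0.63), with the same limit of unequal removal. None of 9 tested among 12 genes induced by type I interferon was called (median -0.02), with Ifi27l2a, the most abundant, at -0.02 ± 0.05, Stat2 at -0.33 ± 0.13 and Bst2 at 0.16 ± 0.15.

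Other large differences lay in sparsely counted genes. Among the 12 largest increases were Dnm3, a dynamin (1.56 ± 0.44, adjusted p = 0.0257), Sec24d, a coat protein of vesicles leaving the reticulum (1.41 ± 0.43, adjusted p = 0.0433), Enah, an actin regulator (1.26 ± 0.35, adjusted p = 0.0245), Cd300lf, an inhibitory receptor (1.04 ± 0.31, adjusted p = 0.043), and Ebi3, a cytokine subunit (0.91 ± 0.23, adjusted p = 0.00951). Without the 2 high heavy chain cells Ebi3 was still called, while Dnm3 (adjusted p = 0.0995), Sec24d (0.26), Enah (0.0705) and Cd300lf (0.11) were not. Enah shows how few cells can carry such a value, with 11 of its 15 UMIs in the IgG2b cells of library 1 in 1 cell. Cd36, a scavenger receptor, was spread over more cells. It was at 12.2 and 16.6 CPM in IgG2b cells and 7.30 and 7.55 CPM in IgG1 cells, from 31 and 28 IgG2b cells (0.94 ± 0.20, adjusted p = 6.98e-04; 0.94 without the highest cells, adjusted p = 6.37e-04). Tmed6, a cargo receptor of the secretory route chosen after its values were seen, was called (1.34 ± 0.21, adjusted p = 6.14e-07) although it was at 22.005 and 5.78 CPM in IgG2b cells and 5.54 and 6.12 CPM in IgG1 cells. It was high in library 1 only, where 1 cell held 34 of its 72 UMIs.

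Among the decreases, Nrgn, a calmodulin-binding protein, was at 4.89 and 3.08 CPM in IgG2b cells and 12.9 and 13.2 CPM in IgG1 cells (-1.67 ± 0.26, adjusted p = 3.71e-07). The classes did not overlap, and the difference was -1.73 ± 0.27 in matched cells (adjusted p = 0.00341) and -1.90 without the highest cell of each sum (adjusted p = 1.28e-08). In library 1 the highest cell held 18.75% of the Nrgn UMIs of IgG2b cells but 3.63% of those of IgG1 cells. Leaving it out thus lowers the fold change by construction, and the -1.90 adds no support. Zmynd11, a chromatin reader, was at 1.53 and 0.771 CPM against 4.41 and 3.06 CPM (-1.66 ± 0.47, adjusted p = 0.0271). Zfp318, needed for IgD expression, was at 2.75 and 1.54 CPM against 5.78 and 5.44 CPM (-1.33 ± 0.36, adjusted p = 0.0189). Zmynd11 rested on 5 and 2 UMIs in IgG2b cells and Zfp318 on 9 and 4, and neither was called without the 2 high heavy chain cells. Parm1 (-0.67 ± 0.16, adjusted p = 0.00395), Eya1, a developmental phosphatase (-0.58 ± 0.16, adjusted p = 0.0183), and the histone gene Hist1h2be (-0.58 ± 0.14, adjusted p = 0.00633) came next. Ccdc77, Abca7, Fbxo33, Cep128, Lmo7 and Dusp16 completed the 12 largest decreases, between -0.54 and -0.44. Without the 2 cells the calls of Eya1 (adjusted p = 0.054), Abca7, Fbxo33, Lmo7 and Dusp16 were lost too.

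Of 17 genes of germinal center identity, Rgs13, which damps chemokine signals, was higher (0.26 ± 0.06, adjusted p = 0.00387) and Mybl1 lower. Among all genes tested 1.77% were called higher and 0.791% lower. Bcl6 had -0.05 ± 0.07 (adjusted p = 0.81) and S1pr2, the receptor that confines cells to the follicle, 0.05 ± 0.06 (adjusted p = 0.80). Of 30 switch recombination factors Ung alone was called, near the share of 2.56% over all genes tested. Of 18 genes of chemotaxis and confinement Cxcr3, Rgs13 and Itgb1, an integrin chain (0.38 ± 0.10, adjusted p = 0.0183), were higher, and Rgs1 was lower (-0.30 ± 0.08, adjusted p = 0.0265). Of 16 memory and resting B cell genes, Cd38, an ectoenzyme low in germinal center cells of mice, and Ltb, a lymphotoxin, were higher. Cd38 was at 8.86 and 15.04 CPM in IgG2b cells and 5.86 and 7.28 CPM in IgG1 cells, without overlap (0.84 ± 0.21, adjusted p = 0.00953), and Ltb had 0.16 ± 0.05 (adjusted p = 0.0476). Rgs1 (adjusted p = 0.0695) and Ltb (0.0750) were not called without the 2 high heavy chain cells.

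Regulators of cell fate did not pass the test. Myc moved in opposite directions, at 12.8 CPM against 19.0 CPM in library 1 and 47.8 CPM against 26.5 CPM in library 2 (0.33 ± 0.14, adjusted p = 0.21). Prdm1 was at 3.97 and 1.54 CPM against 1.13 and 1.27 CPM (1.27 ± 0.46, adjusted p = 0.13; 0.21 without the 2 high heavy chain cells), and Irf4, which promotes plasma cell fate, had 0.60 ± 0.20 (adjusted p = 0.0758). Bach2, which holds back plasma cell fate, had -0.10 ± 0.05 (adjusted p = 0.36). Fcgr2b, the inhibitory Fc receptor, had 0.02 ± 0.08 (adjusted p = 0.94), Il4i1, an amino acid oxidase, 0.06 ± 0.08 (adjusted p = 0.82), and Ccr6, a chemokine receptor of memory precursors, 0.15 ± 0.46 (adjusted p = 0.94). No gene was called among 18 of Myc and ribosome biogenesis, 18 of sterol synthesis, 14 of glycolysis, 16 of T cell help and 9 of dissociation stress. Their medians were 0.08, 0.00, 0.04, -0.06 and -0.02. Over all genes tested 2.56% were called, so that none called in lists this short is near that share. The Myc and ribosome biogenesis list depended on the class limit. At 90%, 7 of its 18 genes were called higher with a median of 0.28, all 18 being above 0, where 289 of all 10231 genes tested were called higher. Their most abundant members lay close to 0, as the nucleolar proteins Npm1 (0.12 ± 0.04, adjusted p = 0.0545) and Ncl (-0.01 ± 0.04), the glycolytic enzymes Gapdh (0.02 ± 0.04), Pkm (0.04 ± 0.04) and Ldha (0.02 ± 0.05), and the chaperones Hspa8 (0.10 ± 0.04, adjusted p = 0.11) and Hsp90aa1 (-0.08 ± 0.04). Of 18 survival and 14 NF-κB genes, 1 and 2 were higher, all of them named above, and of 13 immediate early genes Egr1 and Egr3 were higher.

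Several abundant genes had the smallest p-values and are named after their values were seen. Txn1, thioredoxin, was at 622 and 627 CPM in IgG2b cells and 488 and 508 CPM in IgG1 cells, without overlap (0.34 ± 0.04, adjusted p = 9.68e-10). Tmsb4x, an actin-binding peptide, was at 3742 and 4616 CPM against 3208 and 3732 CPM (0.27 ± 0.03, adjusted p = 1.32e-10). Both were called without the 2 high heavy chain cells (0.31 and 0.28), but not in matched cells, where they had 0.13 (adjusted p = 0.49) and 0.05 (adjusted p = 0.79). The same held for Ftl1, the ferritin light chain (0.28 with all cells, 0.12 matched), Anxa2, an annexin (0.33 and 0.18), and Srgn, a granule proteoglycan (0.32 and 0.15). Gm42418, which overlaps ribosomal RNA, was lower (-0.25 ± 0.03, adjusted p = 3.75e-09) and had -0.09 in matched cells (adjusted p = 0.53).

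**Figure D4:**
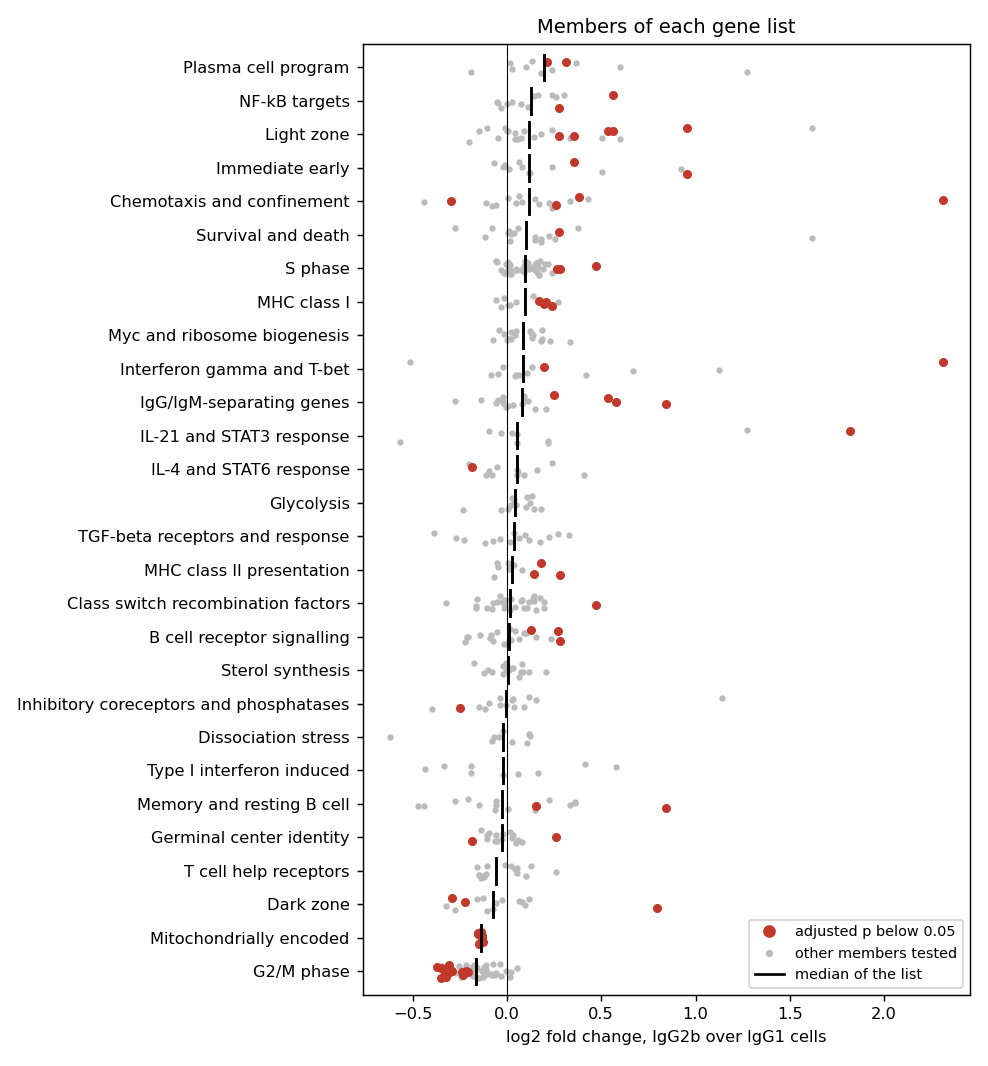
Log2 fold change, IgG2b over IgG1, of the tested members of each of 28 gene lists, with red points for an adjusted p below 0.05, grey points for other members and a black bar for the median. The G2/M phase and mitochondrially encoded lists have the lowest medians, -0.17 and -0.14, and the plasma cell program the highest, 0.20.

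Levels of single genes in IgM cells of the same libraries, 2338 and 1802 cells, are set beside these values as a description, with no test. Mki67 was at 1423 and 1373 CPM in IgM cells, beside 1430 and 1350 in IgG2b and 1758 and 1667 in IgG1 cells. Cxcr3 was at 4.74 and 4.71 CPM in IgM cells, close to the IgG2b level. Ly6d, a surface protein of immature and naive B cells chosen by earlier results as one that separates IgM from IgG cells, was at 154 and 215 CPM in IgM cells, 69.99 and 83.3 in IgG2b and 46.2 and 57.2 in IgG1 cells. IgG2b lay between the other classes in it (0.58 ± 0.08 against IgG1, adjusted p = 3.47e-08). Apoe, a lipid carrier of that same list of 21 genes, of which 4 were higher and none lower, had 0.25 ± 0.05 (adjusted p = 1.92e-04). Fcmr, the IgM Fc receptor, was at 178 and 204 CPM in IgM cells, 127 and 171 in IgG2b and 108 and 129 in IgG1 cells (0.32 ± 0.06 against IgG1, adjusted p = 3.03e-04). Ccnd2 and Cd38, with values given above, were the other called genes of the list of 21. In Cd72 and Foxp1, which were not called, the IgG2b level lay near that of IgG1 cells. Cd72, an inhibitory receptor, was at 57.5 and 70.2 CPM in IgG2b, 56.2 and 63.9 in IgG1 and 127 and 147 in IgM cells, and Foxp1, a forkhead factor, at 182 and 155, 190 and 162, and 302 and 293 CPM. Their log2 fold changes against IgG1 were 0.09 ± 0.09 (adjusted p = 0.71) and -0.06 ± 0.06 (adjusted p = 0.76).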

How the data were processed

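The authors deposited gene by cell tables of whole-number UMI counts for 2 libraries, made with Cell Ranger 3.0.2 per the file headers and with mm10 per the submitters' processing notes. No value had been normalized. Cells were chosen as described in the report, and the class members and gene lists were chosen with earlier results of these data known. Counts were summed by library and class, 424 immunoglobulin genes were removed, and genes were kept by filterByExpr. edgeR 4.0.16 (TMM, glmQLFit and glmQLFTest, library as block, Benjamini-Hochberg over all 10626 genes) gave every adjusted p. Both classes share a library, which pairs the sums. The 4 sums leave 1 residual degree of freedom, so each gene's spread leans on the other genes (prior degrees of freedom 291, coefficient of variation 5.08%). On simulated counts the test recovered 62 of 100 genes changed 1.5-fold and 69 of 100 changed 2-fold, with 5 false calls. The simulation gave every gene the same dispersion, with no library effect and no single cell holding many UMIs. Its changes were also larger than the median called difference, 0.272 on the log2 scale. Neither its recovery nor its false calls can therefore be carried over to these data. Doublets were scored with scanpy 1.11.5, which called 3 IgG1 cells and no IgG2b cell, and the alternative that left out the highest 6% of scores was run. Named genes were the 12 largest called increases and decreases with 1 sign in both libraries, up to 4 called members of each list or else its 3 most abundant, and a set of regulators, of which 1 is not reported here. Plk1, Tmed6, Manf, Calr, Pdia4, Sub1, Txn1, Tmsb4x, Ftl1, Anxa2, Srgn, Gm42418 and the other genes said to be so were added after their values were seen, as were the folding list, the promoter motifs and 5 of the 19 other settings. DESeq2 1.42.0 was 1 of these settings.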

Additional observations from a re-analysis of the deposited data

How the results depend on the processing

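The count of 272 genes (188 higher, 84 lower in IgG2b cells) moved by over 1.5 times under most of the settings tried, and the cause was not tested. The count was 47 (32 higher, 15 lower) with DESeq2, 126 (75 higher, 51 lower) without TMM factors and 188 (99 higher, 89 lower) without a filter on low counts. It was 0 (0 higher, 0 lower) without the replicate block for library, 65 (39 higher, 26 lower) with the sums of IgM, IgG2c and IgG3 cells in the fit and 419 (289 higher, 130 lower) with a class limit of 90%. The count was 352 (223 higher, 129 lower) with at least 20 heavy chain UMIs, 37 (17 higher, 20 lower) with a mitochondrial limit of 10% and 79 (34 higher, 45 lower) with a limit of 15%. It was 63 (47 higher, 16 lower) in cells thinned to 3200 UMIs, 48 (32 higher, 16 lower) without the highest 6% of doublet scores and 131 (86 higher, 45 lower) without barcodes holding markers of other lineages. The count was 6 (5 higher, 1 lower) in light zone gate cells, 51 (36 higher, 15 lower) in cells outside that gate and 16 (7 higher, 9 lower) in matched cells. It was 241 (191 higher, 50 lower) without the Jchain-rich cells, 145 (90 higher, 55 lower) without the 2 high heavy chain cells and 327 (258 higher, 69 lower) without each gene's highest cell. That last setting takes 1 cell from every sum, which weighs more on sparse genes in the IgG2b sums, as these hold fewer cells. The count was 230 (165 higher, 65 lower) without mitochondrial genes. With the pairing by library as replicate block 272 genes were called, against 0 without it. No test exists with 1 library left out. The limits on mitochondrial share and the matched, thinned and zone gate settings leave fewer cells or UMIs. The light zone gate share, IgG2b minus IgG1 in percentage points, averaged 0.98 over the libraries (0.22 to 1.73 with 1 library left out) and was -0.51 with a mitochondrial limit of 10%, -1.93 with a limit of 15%, -1.87 with at least 20 heavy chain UMIs and -0.43 in matched cells. The dark zone gate difference averaged 0.52 (-0.50 to 1.53) and was -1.42 without thinning, -1.03 with a class limit of 90%, 3.49 with a mitochondrial limit of 15% and 2.35 with at least 20 heavy chain UMIs. Among the 134 named genes the log2 fold change took the other sign in 136 pairs of a gene and a setting. Of these, 15 pairs concerned 10 called genes, listed among the rest here. The remaining pairs concerned genes that were not called.

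Without TMM factors, the sign turned for S1pr3 (-0.0020). Without a filter on low counts, the sign turned for Smad7 (-0.0072), Nop56 (-0.010), Ldha (-0.0018) and S1pr3 (-0.015). With the sums of IgM, IgG2c and IgG3 cells in the fit, the sign turned for S1pr3 (-0.0028). With a class limit of 90%, the sign turned for Tgfb1 (-0.11), Smad7 (-0.061), Ncl (0.13), Slamf6 (-0.12), Hsp90aa1 (0.046), Dtx1 (-0.078), S1pr3 (-0.069), Zbtb32 (0.0068), Cxcr4 (-0.14), Cd83 (-0.064), Il4i1 (-0.077) and Cd72 (-0.048). With at least 20 heavy chain UMIs, the sign turned for Tgfb1 (-0.0029), Ifi27l2a (0.032), Srebf2 (-0.026), Pkm (-0.021), Cr2 (-0.046), Dtx1 (-0.063), Spn (0.15), Zbtb32 (0.092), Cd68 (0.016), S1pr2 (-0.053), Foxp1 (0.11) and Ccr6 (-1.72). With a mitochondrial limit of 10%, the sign turned for Tgfb1 (-0.062), Ifi27l2a (0.32), Stat2 (0.15), Ccnd2 (-0.048), Npm1 (-0.051), Ncl (0.0012), H2-Aa (-0.038), Fdps (-0.065), Rgs1 (0.16), Btg2 (0.12), Gapdh (-0.032), Ldha (-0.071), mt-Co1 (0.016), mt-Co2 (0.018), Cr2 (-0.22), Dtx1 (-0.033), Spn (0.41), Zbtb32 (0.11), Hbb-bt (-0.0087), Il4ra (0.16), Cd83 (-0.079), Il4i1 (-0.28), Foxp1 (0.39) and Ccr6 (-1.002). With a limit of 15%, the sign turned for Tgfb1 (-0.036), Ifi27l2a (0.082), Stat2 (0.043), Nop56 (-0.00053), Fdps (-0.0070), Btg2 (0.050), Gapdh (-0.037), Pkm (-0.0041), Ldha (-0.043), Cr2 (-0.11), Dtx1 (-0.042), Lck (0.0034), Il4i1 (-0.14), Foxp1 (0.18) and Ccr6 (-1.21). In cells thinned to 3200 UMIs, the sign turned for Smad7 (-0.0072), Bst2 (-0.040), Nop56 (-0.013), Il21r (-0.018), Ldha (-0.0072), S1pr3 (-0.72), Spn (0.039), Cd68 (0.30), Bcl6 (0.017), Fcgr2b (-0.14) and Il4i1 (-0.15). Without the highest 6% of doublet scores, the sign turned for Smad7 (-0.0048) and Nop56 (-0.0053). Without barcodes holding markers of other lineages, the sign turned for Ncl (0.00036), Nop56 (-0.00034), S1pr3 (-0.036), Spn (0.023) and Cd68 (0.030). In light zone gate cells, the sign turned for Sub1 (-0.26), Bcl2a1b (-0.0040), Ccnd2 (-0.16), Ncl (0.052), Il21r (-0.092), Hsp90aa1 (0.061), Cxcr4 (-0.039), Cd83 (-0.038), Cd86 (-0.16), Il4i1 (-0.17), Slpi (-0.58), Cd72 (-0.077) and Ccr6 (-0.29). In cells outside that gate, the sign turned for Smad7 (-0.099), Nop56 (-0.012), Slamf6 (-0.075), Gapdh (-0.014), Pkm (-0.034), Ldha (-0.049), S1pr3 (-0.10), Spn (0.14), Lck (0.21), Cd68 (0.0044) and Fcgr2b (-0.0094). In matched cells, the sign turned for Bst2 (-0.016), Bcl2a1b (-0.018), Ccnd2 (-0.053), Ncl (0.050), H2-Aa (-0.037), Gapdh (-0.024), Ldha (-0.053), mt-Co2 (0.0033), mt-Atp6 (0.0021), Zbtb32 (0.066), Bcl6 (0.057), Cd83 (-0.019), Cd86 (-0.010), Il4i1 (-0.080) and Cd72 (-0.021). Without the Jchain-rich cells, the sign turned for Ncl (0.0081), Nop56 (-0.015), Cd68 (0.0072) and Slpi (-0.26). Without the 2 high heavy chain cells, the sign turned for Cd68 (0.000045) and Slpi (-0.39). Without each gene's highest cell, the sign turned for S1pr3 (-0.052), Slpi (-0.29) and Ccr6 (-0.44). In library 2 alone, the sign turned for Tmed6 (-0.085, against 1.97 in library 1 alone).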
